A study of Nasturtium officinale with 24 samples.

Results

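Petioles of watercress (Nasturtium officinale), the stalks that carry the leaf blades, were compared after 2 days completely under water with petioles kept in air for the same time. The comparison rests on 6 of the 24 RNA sequencing libraries of the series, 3 from submerged and 3 from air-kept plants, each made from the petioles of 5 pooled plants. It covers 53919 of the 80741 transcript contigs in the files, namely those that passed a filter on low counts. The plants were about 3 weeks old and had grown in short days of 8 h, with nights of 16 h, at 23 °C and 100 µmol photons per square metre and second. All of them stood in plastic tubs from early in the light period, with water for the submerged group and without it for the controls. The labels give no genotype, allele or added agent, and do not say whether the stem and petiole pools used further down came from the same plants.

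Water slows the exchange of gases, so that ethylene collects in submerged shoots, oxygen runs low in the dark and carbon dioxide and light limit photosynthesis. In plants of wet habitats these signals are known to change growth. Petioles of Rumex palustris, for example, bend upward and elongate under water, driven by ethylene, gibberellin and a fall in abscisic acid. The title of the watercress series concerns elongation of the stem under water, and petioles are the other shoot organ sampled. The files do not pair contigs with genes, so no pathway, gene or cell type marker could be read from them, and the tissue label was not checked against markers. Contigs are described here by their levels, their size of change and their behaviour in the other libraries.

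The 6 libraries held 18054600 to 33377100 estimated counts. Levels are given as CPM, the count divided by the scaled library total in units of 1000000. In the air group the 10 most abundant contigs took 11.2%, 16.5% and 7.60% of the counts, and under water 10.8%, 11.6% and 8.03%. By this share replicate 2 in air was the highest and replicate 3 in air the lowest of the 6. GEMC01069390.1 (2393 bases), the most abundant contig of the 6 libraries and singled out after its values were seen, stood at 36634, 65526 and 14668 CPM in air and at 35407, 41550 and 23391 CPM under water. Its groups overlapped, and its log2 change of -0.22 ± 0.41 (SE, n = 3 per group) was not called (edgeR, adjusted p = 0.73). Without replicate 2 in air the change was 0.38, and without replicate 3 in air -0.61.

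Under water 8811 contigs were higher and 9252 lower than in air, together 33.5% of those tested (edgeR quasi-likelihood test, Benjamini-Hochberg adjusted p under 0.05). The higher contigs were 16.3% and the lower contigs 17.2% of those tested. With library totals alone 9974 were higher and 7528 lower, and with limma-voom 8858 and 8737. The balance of directions thus depended on scaling and fit. Of the higher contigs, 95.9% had all 3 submerged libraries above all 3 air libraries, and of the lower contigs 95.7% had them all below. Among all contigs tested, called or not, 22.5% lay wholly above and 22% wholly below. Omission of any 1 of the 6 libraries left 14381 to 16512 contigs called. These fits drew on the other groups for the spread, and a fit on just the 6 libraries called 13525. At an adjusted p under 0.01 the main fit called 12086. When only changes shown to exceed 2-fold were counted (glmTreat), 2037 contigs were higher and 1934 lower.

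Most changes of well-expressed contigs were moderate. In 17760 contigs the log2 CPM averaged 3 or more over the 6 libraries, and these are called well expressed here. Their median log2 change was 0.02, with the 5th and 95th percentiles at -1.41 and 1.49. Of these contigs, 4609 were called higher with a median log2 change of 0.86, and 4493 lower with a median of -0.88. By at least 2-fold, 1840 of them rose and 1806 fell. By at least 8-fold the numbers were 138 and 116, and by at least 32-fold 20 and 28. The largest rise was 8.18 and the largest fall -7.91 on the log2 scale. None of the called contigs in this class lacked counts in a whole group.

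**Figure D1:**
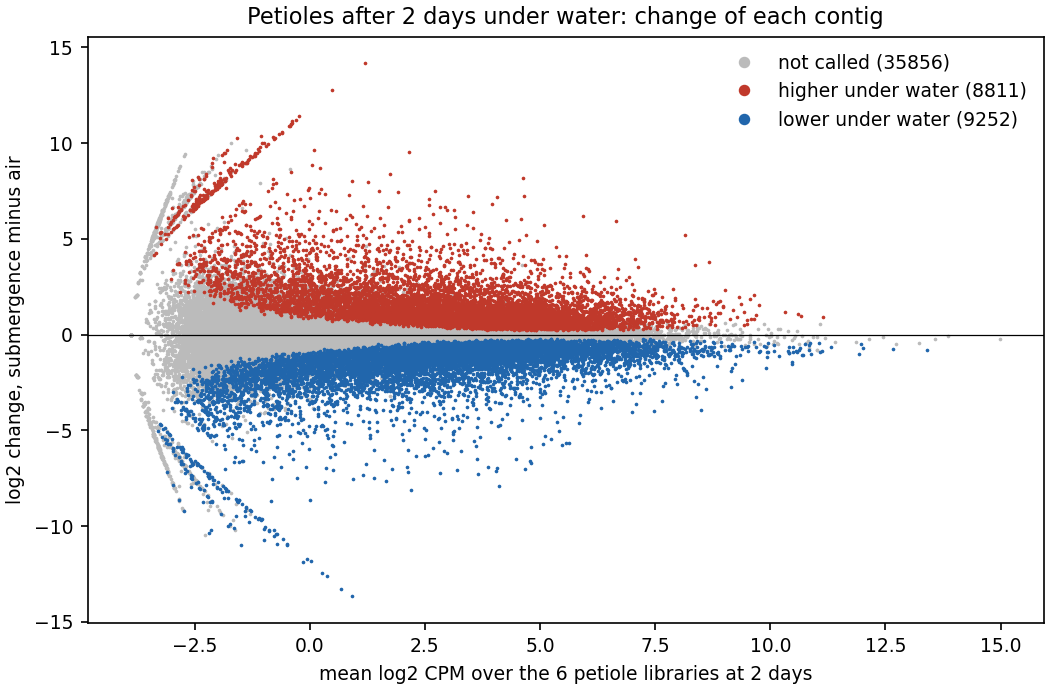
Each point is 1 of the 53919 contigs tested, with its mean log2 CPM over the 6 petiole libraries at 2 days on the horizontal axis and its fitted log2 change (submergence minus air) on the vertical axis. Red marks the 8811 contigs called higher, blue the 9252 called lower and grey the rest. The slanting streaks at low abundance are contigs with no or nearly no counts in 1 group, whose fitted change is not a measured fold.

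The share of contigs called differed between abundance classes, and in the top class more were lower than higher. The median SE of the log2 change fell from 0.83 in the lowest class to 0.17 between 4 and 6. Below a mean log2 CPM of 0, 7.25% of 16403 contigs were called higher and 8.89% lower. Between 4 and 6 it was 28.1% higher and 25.2% lower, and between 6 and 8 it was 28.2% higher and 32.4% lower. At 8 or more, which holds 356 contigs, 17.4% (62 contigs) were higher and 42.4% (151 contigs) were lower, and the median log2 change was -0.31. The median SE in that class was 0.18. CPM is not corrected for contig length. Classed by log2 TPM, which is, the top class (8 or more) held 320 contigs, of which 15% were higher and 41.9% lower.

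Among the 50 most abundant contigs 24 were lower and 3 higher, and among the 100 most abundant 44 were lower and 12 higher. In the top class more contigs were lower than higher in each of 16 other fits, with 122 to 159 lower against 55 to 81 higher, apart from the test against 2-fold, which left 21 and 17. The abundance classes were drawn over the same 6 libraries as the calls. The median change of the top class was -0.21 without replicate 2 in air and -0.40 without replicate 3 in air, the libraries with the highest and the lowest share of counts in the 10 leading contigs.

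**Figure D2:**
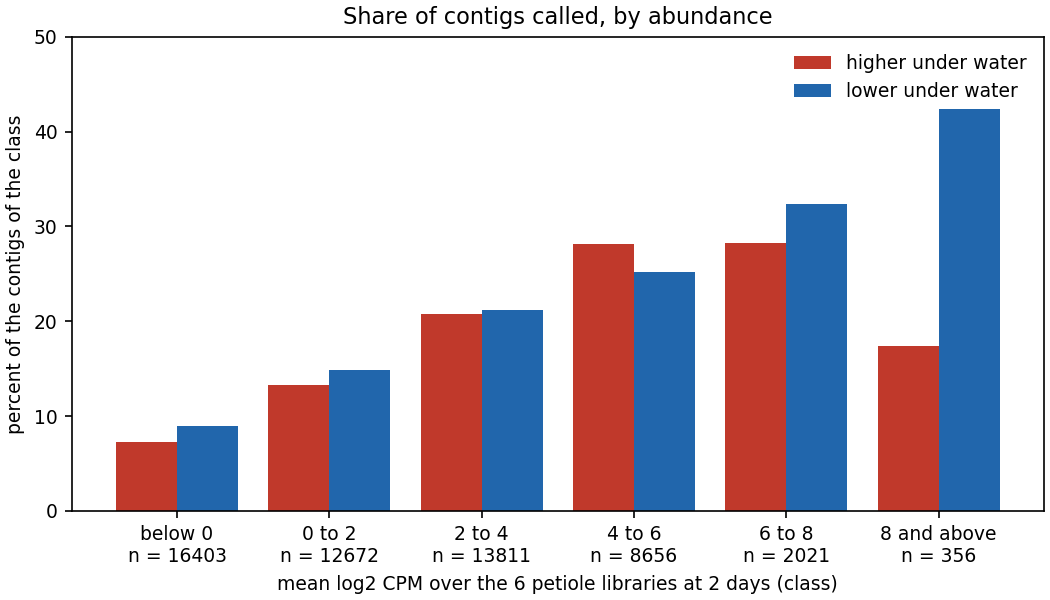
Bars give the percent of contigs in each class of mean log2 CPM (6 petiole libraries at 2 days) that were called higher (red) or lower (blue) under water, with the number of contigs per class under the axis. Both shares grow with abundance up to a mean log2 CPM of 6. Between 6 and 8, 32.4% were lower against 28.2% higher, and in the top class 42.4% were lower against 17.4% higher.

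Contigs lowered under water had filled much of the message pool in air. As a description of contigs picked by this same contrast, they held 40.9%, 37.8% and 42.0% of the counts in the 3 air libraries and 21.5%, 19.7% and 22.5% in the 3 submerged libraries. The raised contigs held 12.8%, 12.4% and 13.9% in air and 29.6%, 31.4% and 30.5% under water. In bulk tissue fewer cells of a type and less RNA per cell cannot be told apart, and shares say nothing of the total amount of RNA.

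The loss was spread over fewer contigs than the gain. Between the mean profiles of the groups, without any selection of contigs, 22.5% of the counts moved from some contigs to others. Of the counts lost, 50% came from 359 contigs, and of the counts gained, 50% went to 940. The order held with TPM (298 and 800) and with each of the 6 libraries left out, but its size rested on the air libraries. Without replicate 3 in air the numbers were 227 and 1029, and without replicate 2 in air 500 and 686.

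The largest gains in CPM, by a rule based on amount rather than fold, were those of GEMC01042315.1 and GEMC01027992.1. GEMC01042315.1 (1136 bases) stood at 46.5, 43.6 and 49.6 CPM in air and at 1482, 1927 and 1772 CPM under water. All submerged libraries thus lay far above all air libraries, and the log2 rise of 5.21 ± 0.41 (SE, edgeR, adjusted p = 2.3e-08) was called in each of 17 other fits with adjusted p from 1.7e-46 to 2.9e-05. GEMC01027992.1 (891 bases) was already abundant in air, at 1707, 1671 and 1618 CPM, and stood at 2739, 3469 and 3113 CPM under water. Its groups did not overlap, its log2 change was 0.90 ± 0.12 (edgeR, adjusted p = 1.3e-05), and the call ended only in the test against 2-fold, of 17 other fits.

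GEMC01042315.1 also rose in the other libraries. In submerged stems at 2 days it reached 684, 738 and 495 CPM, from 41.5, 19.5 and 38.4 CPM in air. In petioles it had been at 537, 766 and 945 CPM after 1 day under water, from 18.7, 30.1 and 49.0 CPM in air. All submerged petiole libraries at 2 days thus lay above all submerged libraries of these other groups. The difference in response was 0.95 ± 0.49 against stems (edgeR, adjusted p = 0.51) and 0.69 ± 0.49 against 1 day (edgeR, adjusted p = 0.62), neither past the threshold. GEMC01027992.1 was called higher there too, by a log2 change of 0.58 ± 0.12 in stems at 2 days (edgeR, adjusted p = 0.0017). In petioles at 1 day it was 0.63 ± 0.12 (edgeR, adjusted p = 0.00059). Neither difference in response was past the threshold (edgeR interactions, adjusted p = 0.52 and 0.56).

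The largest called losses were those of GEMC01055200.1 and GEMC01034486.1. GEMC01055200.1 (3836 bases) stood at 12798, 19812 and 10929 CPM in air and at 8722, 8579 and 7936 CPM under water. The groups did not overlap, but replicate 2 in air lay far above the other air libraries. Its fall of -0.79 ± 0.29 on the log2 scale was just called (edgeR, adjusted p = 0.042). Of 17 other fits 8 no longer called it, with adjusted p from 0.018 to 1 over all 17. Without replicate 2 in air the change was -0.50. The call also ended without replicate 1 in air and without any 1 of the submerged libraries.

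GEMC01034486.1 (957 bases) fell from 7830, 7947 and 9684 CPM in air to 4156, 5204 and 5858 CPM under water. Its groups did not overlap, and its log2 change was -0.74 ± 0.19 (edgeR, adjusted p = 0.0056), a call that ended only in the test against 2-fold, of 17 other fits. In stems at 2 days it stood lower in both groups, at 2469, 2585 and 2309 CPM in air and 1951, 2330 and 1915 CPM under water, where its log2 change of -0.25 ± 0.19 was not called (edgeR, adjusted p = 0.41). The difference between the tissues was -0.49 ± 0.27 and not past the threshold either (edgeR, adjusted p = 0.54).

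**Figure D3:**
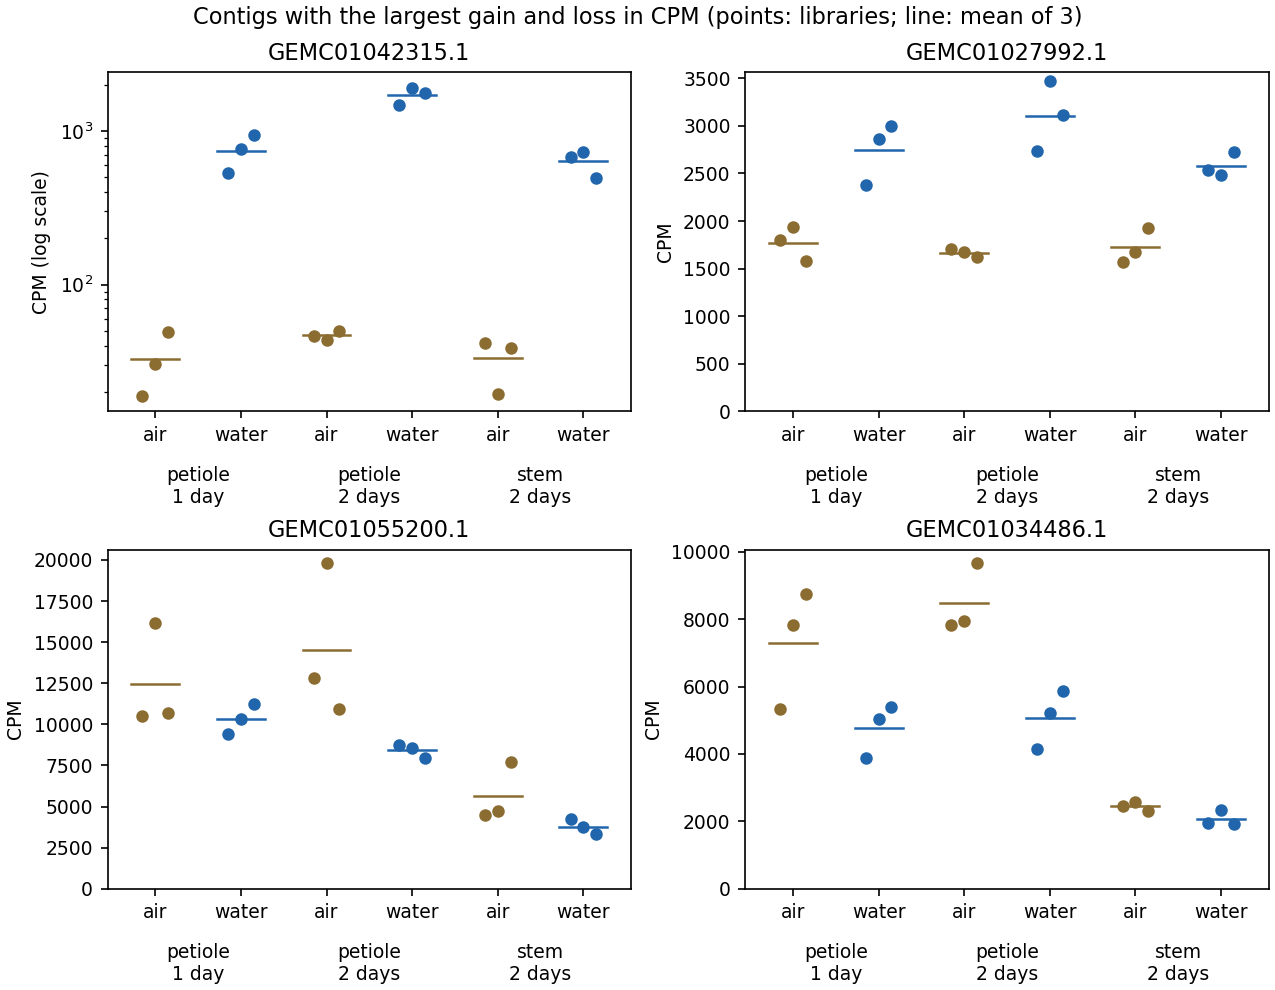
CPM of the 4 contigs with the largest called gain (top row) and loss (bottom row) in petioles at 2 days, shown in air (brown) and under water (blue) for petioles at 1 day, petioles at 2 days and stems at 2 days. Points are the 3 libraries of a group, lines their means, and the first panel has a log axis. In petioles at 2 days the groups do not overlap in any panel, and replicate 2 in air of GEMC01055200.1 stands apart at 19812 CPM.

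Some contigs reached the minimum count in all libraries of 1 group only, and some had no count at all in a group. Of the contigs tested, 37127 reached the minimum count in all 6 libraries, and 40.0% of these were called. A further 3993 reached it in all 3 libraries under water but not in all 3 in air. For 3246 it was reached in all 3 in air but not in all 3 under water. The filter ran over all 8 groups. Of the former contigs 1210 were called higher, and of the latter 1264 lower. A contig that passed only through the group where it was high was bound to lean that way, called or not. Nothing is read from the direction of these calls, which are part of the 8811 higher and 9252 lower contigs. Of the contigs with the minimum count in all 6 libraries, 7284 were called higher and 7552 lower. No count at all in air came with at least 10 counts in every submerged library for 88 contigs, and the reverse was true of 40. No count in all 6 libraries was found for 85 contigs, which passed through other groups.

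Of the well-expressed contigs, short ones were more often lower and long ones more often higher under water. Of 3812 with 500 to 1000 bases 31.1% were lower and 22.4% higher. Of 3388 with 2000 to 3000 bases 20.7% were lower and 28.3% higher. The median log2 change was -0.10 in the former and 0.08 in the latter. Averaged over counts, the length of the contigs was 1584, 1589 and 1639 bases in the air libraries and 1641, 1628 and 1632 bases in the submerged ones. The groups overlapped (exact two-sided permutation test, p = 0.3, with 0.1 the smallest p possible for 3 against 3, and 0.47 after adjustment over 7 such library measures).

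Contigs with consecutive identifiers changed together more often than the background. Of 6995 higher contigs whose next number was also tested, 34.1% had a neighbour that was higher too, against 16.3% of all contigs. For 7140 lower contigs the share was 37.3%, against 17.2%. Counted as unbroken runs of identifiers with the same call, the higher contigs made 6428 runs and the lower contigs 6587. Whether neighbours are variants of 1 gene was not tested.

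In neither the breadth of expression nor the number of detected contigs did the groups lie wholly apart. The leading contigs that made up 50% of the counts numbered 1201, 759 and 1467 in air and 1562, 1342 and 1670 under water, with overlap (exact two-sided permutation test, p = 0.2, adjusted over 7 measures 0.47). At an equal depth of 18054600 counts, 55479, 54719 and 53923 contigs would be detected in air and 56169, 55113 and 54908 under water (exact p = 0.4, adjusted 0.47).

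The change in petioles at 2 days was checked with sets of contigs chosen in other libraries. Contigs called higher in stems at 2 days held 10.7%, 10.4% and 11.5% of the petiole counts in air and 24.1%, 25.9% and 25.3% under water. Contigs called lower in stems went from 23.8%, 22.0% and 25.4% to 12.01%, 10.8% and 12.3%. In both sets the submerged petiole libraries lay wholly apart from those in air. For the contigs called higher in petioles at 1 day the shares were 11.5%, 11.2% and 12.4% in air and 25.8%, 27.6% and 26.7% under water. Those called lower at 1 day went from 25.9%, 24.5% and 28.7% to 13.7%, 12.7% and 14.3%.

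**Figure D4:**
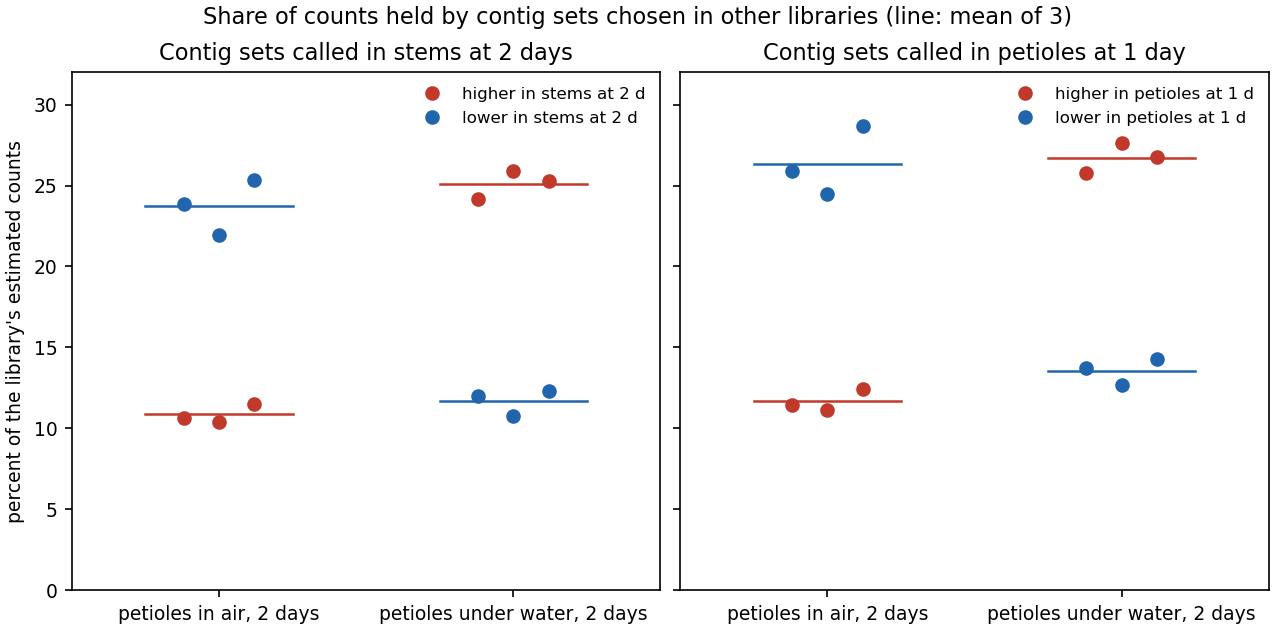
Percent of a library's estimated counts held by contigs called higher (red) or lower (blue) under water in stems at 2 days (left) or in petioles at 1 day (right), measured in the petiole libraries at 2 days. Points are libraries and lines means of 3. In all 4 sets the submerged libraries lie wholly apart from the air libraries.

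By contig, 81.7% of the 5584 raised and 80.3% of the 5684 lowered in stems at 2 days were called in the same direction in petioles at 2 days, where 16.3% and 17.2% of all contigs were. In petioles at 1 day 69.6% and 60.3% of the same contigs were called in that direction, beside 13.5% and 10.8% of all. The median log2 change of the set raised in stems was 1.14 in petioles at 2 days and 0.98 at 1 day, with contigs without counts in a group set to their limit of 3 counts per library. For the set lowered in stems it was -1.09 and -0.78. The difference between the days over such a set was not tested. Seen from the petioles, 51.8% of the contigs higher at 2 days were also called higher in stems and 60.3% at 1 day. Of the contigs lower at 2 days 49.3% were called lower in stems and 47.7% at 1 day. In all 3 comparisons 3615 contigs were higher and 3146 lower.

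Pairs of libraries were also compared without calls. An air and a submerged petiole library at 2 days differed in where 23.3% to 28.4% of their counts lay (9 pairs). Within the groups it was 10.7% to 16.5% in air and 7.79% to 11.7% under water (3 pairs each). At 1 day the petiole pairs across treatments differed by 17.7% to 26.8%, overlapping those at 2 days. The stem pairs differed by 18.5% to 21.8% at 2 days, below all 9 petiole pairs, and by 18.7% to 24.1% at 1 day, overlapping them. Within the stem groups at 2 days it was 7.81% to 13.1% in air and 7.28% to 8.66% under water.

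The response differed between petioles and stems at 2 days for 326 contigs, 0.605% of those tested (edgeR, tissue by treatment interaction, adjusted p under 0.05). By the signs of the fitted changes alone, 108 had a positive change in both tissues with the larger one in petioles, and 84 a negative change in both with the larger one in petioles. For 6 positive and 10 negative contigs the change of like sign was smaller in petioles, and for 118 the signs were opposite. By calls, 60 contigs with the more positive change in petioles were higher in both tissues and 84 were higher in petioles and not called in stems. Of those with the more negative change, 31 were lower in both and 91 were lower in petioles and not called in stems. Of the 326, 12 were called lower in petioles and higher in stems, and 15 the other way round. Of the 8907 contigs called in petioles but not in stems, 175 passed this test. For the rest a call in petioles alone establishes neither a difference nor a likeness between the tissues. With TMM scaling 180 of the 326 had the more positive change in petioles, and with DESeq2 size factors 143 of 312, so the balance of signs depended on scaling.

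The number itself was less firm. Without an air petiole library it was 172, 212 and 233 for replicates 1, 2 and 3, and without a submerged one 190, 163 and 340. Without a stem library in air it was 167, 165 and 128, and without a submerged one 198, 182 and 145. The contigs that led this difference did not depend on 1 library. Each of the 4 named next was called in all 21 other fits.

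In air petioles GEMC01015786.1 (975 bases) measured 8.12, 5.83 and 7.98 CPM, and in submerged ones 402, 757 and 434 CPM. Stems measured 5.11, 4.21 and 5.90 CPM without and 13.7, 19.3 and 13.1 CPM with submergence. The tissues overlapped in air, and all submerged petioles lay far above all submerged stems (log2 difference 4.59 ± 0.38, edgeR, adjusted p = 6.8e-06). Petioles held GEMC01030224.1 (1390 bases) at 2.82, 3.82 and 3.61 CPM in air, then 18.0, 44.8 and 34.6 CPM when submerged. It lay between 39.7 and 78.0 CPM in all 6 stem libraries at 2 days. Of these 4 groups, air petioles were thus the lowest (log2 difference 3.73 ± 0.43 by edgeR, with an adjusted p of 0.00031).

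In the other direction the level fell in petioles. GEMC01064411.1 (3245 bases) fell from 24.1, 20.4 and 35.2 CPM to 2.68, 1.34 and 0.548 CPM in petioles. In stems it was at 70.3, 83.5 and 58.0 CPM in air and at 42.0, 44.7 and 47.9 CPM under water, above the petioles in every library, and the responses differed by -3.40 ± 0.44 on the log2 scale (edgeR, adjusted p = 0.001). GEMC01039162.1 (1053 bases) fell from 36.8, 34.1 and 45.7 CPM to 3.37, 3.56 and 3.24 CPM in petioles. In stems it went from 39.6, 38.5 and 39.4 CPM to 19.6, 14.7 and 18.1 CPM, a smaller fall from a like level (log2 difference -2.35 ± 0.27, edgeR, adjusted p = 0.00031). All 4 contigs had already changed in petioles at 1 day. The log2 changes there were 5.81 for GEMC01015786.1, 2.56 for GEMC01030224.1, -3.23 for GEMC01064411.1 and -3.74 for GEMC01039162.1. None was called different between the days (edgeR, time by treatment interaction, adjusted p from 0.5 to 0.82).

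The response at 2 days differed from that of petioles at 1 day for 107 contigs, 0.198% of those tested (edgeR, time by treatment interaction). The change was more positive at 2 days for 60 and more negative for 47. With library totals alone it was 65 and 28. By the signs of the fitted changes alone, 16 had a positive and 11 a negative change on both days that was larger at 2 days, 13 positive and 9 negative changes were smaller at 2 days, and 58 had opposite signs. By calls, 7 of those with the more positive change at 2 days were higher on both days, and 4 of those with the more negative change were lower on both. A further 9 contigs were called lower at 1 day and higher at 2 days, and 8 the other way. Of the 8299 contigs called at 2 days but not at 1 day, 39 passed this test.

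The count at 1 against 2 days depended strongly on single libraries and on the fit. A replicate block gave 71. It was 7 without replicate 2 and 168 without replicate 1 of the air petioles at 1 day, and 28 without replicate 2 of the submerged ones. Without replicates 1 and 2 in air at 2 days it was 19 and 57, and without replicates 1 and 2 under water 39 and 27. With DESeq2 it was 1049, with limma-voom 17, and with edgeR on just the 12 libraries of this contrast 3.

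GEMC01042733.1 (1676 bases) showed the change of direction. After 1 day it measured 8.90, 13.5 and 18.2 CPM in air against 4.56, 7.28 and 7.50 CPM under water. After 2 days it measured 7.61, 7.15 and 13.6 CPM in air against 29.9, 39.2 and 21.8 CPM under water. The submerged libraries thus lay below all controls on the first day and above all controls on the second (log2 difference 2.76 ± 0.46, edgeR, adjusted p = 0.027, not called in 5 of 21 other fits). GEMC01029624.1 (416 bases) went the same way, from 8.72, 18.8 and 21.5 CPM in air and 5.33, 7.04 and 6.85 CPM under water to 10.9, 15.3 and 16.3 CPM in air and 41.9, 44.5 and 19.8 CPM under water. Its log2 difference was 2.68 ± 0.46 (edgeR, adjusted p = 0.029), and 8 of 21 other fits did not call it. In stems at 2 days both contigs lay within overlapping ranges, 4.90 to 9.66 CPM for GEMC01042733.1 and 5.66 to 10.04 CPM for GEMC01029624.1, and neither was called. The difference from petioles at 2 days was 1.59 ± 0.45 (edgeR, adjusted p = 0.14) and 1.64 ± 0.46 (edgeR, adjusted p = 0.13), neither past the threshold. Stems at 1 day also stood lower under water. GEMC01042733.1 was at 7.38 to 9.28 CPM in air and 2.06 to 3.83 CPM under water. GEMC01029624.1 was at 5.79 to 9.22 CPM and 1.08 to 1.82 CPM.

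GEMC01022711.1 (891 bases) had the most negative difference, -3.26 ± 0.53 (edgeR, adjusted p = 0.024), and its controls differed between the days. Of 21 other fits 4 did not call it, among them limma-voom (adjusted p = 0.055) and edgeR without replicate 2 in air at 1 day (adjusted p = 0.054) or without replicate 2 under water at 2 days (adjusted p = 0.052). In air it was at 2.58, 3.28 and 2.57 CPM at 1 day and 14.2, 13.6 and 22.6 CPM at 2 days, while under water it was at 10.5, 11.6 and 17.0 CPM and then at 8.79, 7.47 and 7.97 CPM. The controls differed by a log2 value of 2.57 ± 0.39 between the days (edgeR, adjusted p = 0.031). Air stems stood at 2.21 to 5.95 CPM at 1 day and at 8.58 to 18.7 CPM at 2 days, a difference that was not tested. Submerged stems stood at 5.55 to 9.94 CPM and at 7.97 to 15.1 CPM. Between petioles in air at 2 days and at 1 day edgeR called 8 of the contigs tested, 0.0148%, and 3875 had an unadjusted p under 0.05. DESeq2 called 277 and limma-voom none (0), and edgeR called 40 without replicate 3 in air at 1 day, and 3 without replicate 1 or replicate 3 in air at 2 days. This comparison shares its controls at 2 days with the main comparison. GEMC01064105.1 (1448 bases) fell on both days. After 1 day it measured 67.4, 68.2 and 93.0 CPM in air against 29.7, 22.3 and 25.02 CPM under water, and after 2 days 83.8, 108.7 and 70.6 CPM against 10.9, 5.45 and 8.76 CPM. Its log2 difference of -1.81 ± 0.36 (edgeR, adjusted p = 0.045) was no longer called in 15 of 21 other fits, with adjusted p up to 0.28, and 0.067 with the replicate block (-1.83). Stems stood lower under water too, at 68.5 to 132 CPM in air and 48.8 to 53.5 CPM under water at 1 day. At 2 days they stood at 88.8 to 124 CPM and 20.9 to 30.7 CPM (log2 change -2.02 ± 0.26, edgeR, adjusted p = 1.5e-05).

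**Figure D5:**
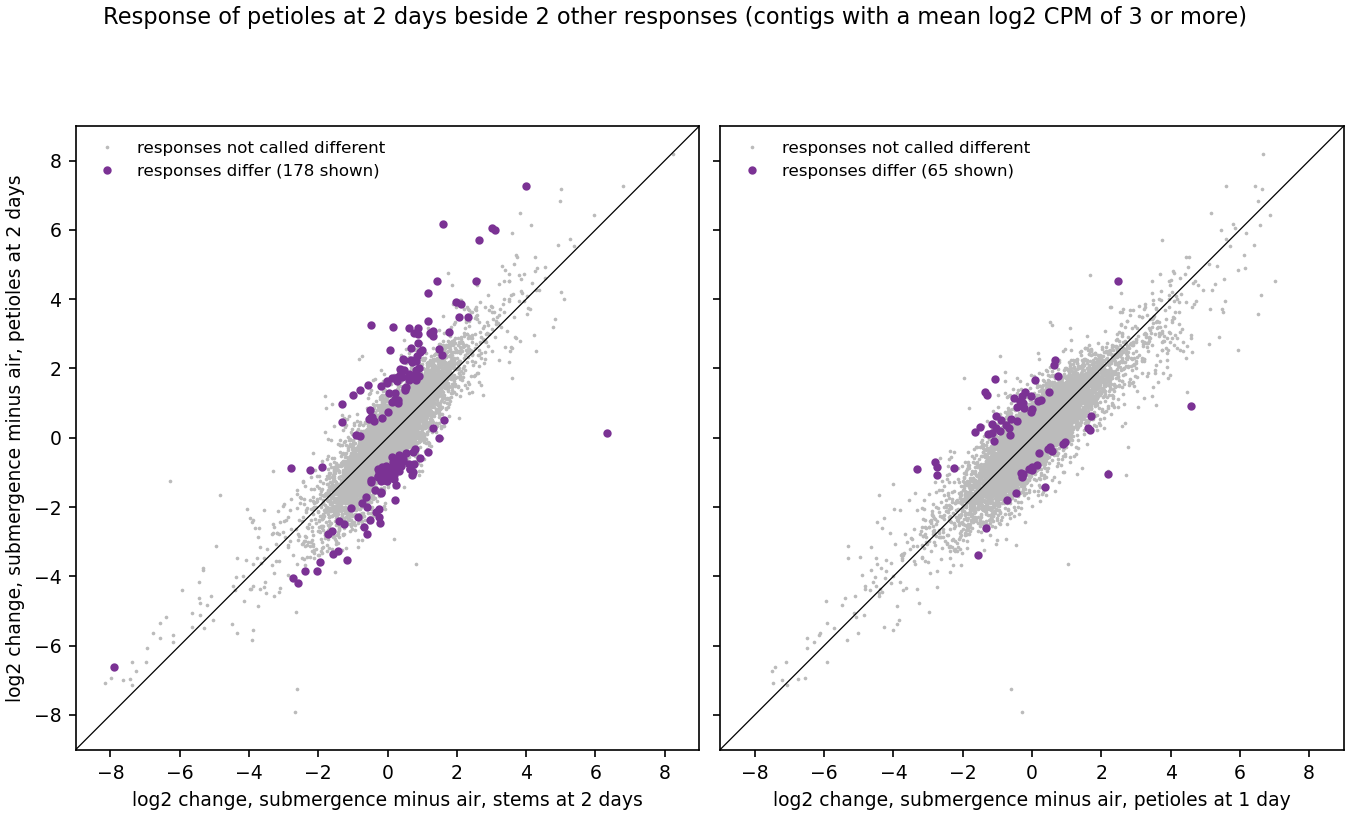
Fitted log2 change (submergence minus air) of petioles at 2 days against that of stems at 2 days (left) and of petioles at 1 day (right), for the well-expressed contigs (mean log2 CPM from 3 upward in the 6 petiole libraries at 2 days). Purple points are contigs whose responses differed (178 against stems, 65 against 1 day), grey points the others, and the line marks equal change. Most purple points in the left panel lie farther from 0 on the petiole axis than on the stem axis.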

How the data were processed

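Messenger RNA was sequenced in 24 libraries (BrAD-seq without strand, paired reads of 100 bp, per the labels' protocols). The submitters' processing notes name kallisto, edgeR and limma, without versions. The authors deposited, per contig, a length and an effective length, an estimated count and a TPM value. Contigs with near-identical copies share reads in such estimated counts, and overlapping antisense transcripts cannot be told apart. The deposited TPM values served only as an alternative.

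Estimated counts were rounded, filtered (filterByExpr by group, minimum count 10, minimum total 15), scaled by TMM and fitted with 1 mean for each of the 8 groups over all 24 libraries in edgeR 4.0.16 (R 4.3.3), with quasi-likelihood tests and Benjamini-Hochberg adjustment over 53919 contigs. SEs were derived from the F statistic. The procedure was also run on simulated counts in which far fewer contigs changed than were called here, so nothing is read from that run for these data. Alternatives used limma 3.58.1 and DESeq2 1.42.0. Mean log2 CPM used a prior count of 2. Named contigs were the 2 called with the largest rise and the 2 with the largest fall in mean CPM, and per interaction the 2 most positive and the 2 most negative called contigs whose log2 CPM averaged 3 or more over the 12 libraries. With no gene names, the gene lists and marker lists written for this work were not tested. Members, lists and rules were chosen with earlier results of these data known. Each replicate was a pool of 5 plants, and the labels do not say what a replicate number marks. The deviations of same-numbered libraries from their group means were all correlated above 0.1 between air and submerged petioles at 1 day (0.459, 0.149 and 0.344). The same was true between air petioles at 2 days and 1 day (0.382, 0.218 and 0.296). The numbers were therefore read as pairing those groups, although the labels do not give this. Between air and submerged petioles at 2 days all were positive, but the first lay just under this cut (0.0988, 0.240 and 0.203). Whether the numbers pair these groups was not settled. Between submerged petioles at 2 days and 1 day the values were 0.218, 0.0875 and -0.121. Between petioles and stems at 2 days they were 0.160, -0.166 and -0.216 in air, and 0.217, 0.0523 and 0.223 under water. Between air and submerged stems at 2 days they were -0.0766, 0.0662 and 0.0363. Fits have no replicate term, and blocked values are given where they change a call. The labels describe no molecular tags, so limits set by 3 counts (0.090 to 0.164 CPM in the 6 libraries) cover counting error only.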

Additional observations from a re-analysis of the deposited data

Results flagged for a closer look

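Responses that differed between groups in a test of the difference itself were picked out. They comprise 326 contigs between petioles and stems at 2 days and 107 contigs between 2 days and 1 day in petioles (edgeR interaction, adjusted p under 0.05). Against stems the log2 differences of the named contigs were 4.59 for GEMC01015786.1, 3.73 for GEMC01030224.1, -3.40 for GEMC01064411.1 and -2.35 for GEMC01039162.1. Against 1 day they were 2.76 for GEMC01042733.1, 2.68 for GEMC01029624.1, -3.26 for GEMC01022711.1 and -1.81 for GEMC01064105.1. Dixon's test for a single library was not run, since each group holds 3 libraries.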

How the results depend on the processing

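The number of contigs called under water stayed within 1.5 times the main count in all fits except the test against 2-fold, which left 3971, and was 14381 to 16512 with 1 library left out. Against stems the count was 201 with limma-voom, 1236 with DESeq2, 69 at an adjusted p under 0.01, and 128 to 340 with 1 library left out. Against 1 day it was 58 without a filter, 175 with the stricter filter, 17 with limma-voom, 1049 with DESeq2, 3 when the fit held just the 12 libraries of the contrast, 3 at an adjusted p under 0.01, and 7 to 168 with 1 library left out. A replicate block made it 71, and left 18010 contigs called in the main comparison and 324 against stems. Between the controls of the 2 days, where the numbers were read as pairing the libraries, the block gave 7. It held 1 effect per replicate number, shared by all 24 libraries, so a pairing of these control groups alone was not fitted. Of the named contigs' calls the block ended that of GEMC01064105.1 and no other. Between the controls of the 2 days the count of 8 became 4 with DESeq2 size factors, 4 without a filter, 277 with DESeq2, 3 to 40 with 1 library left out, and 0 with limma-voom, with edgeR on the contrast's own libraries and with edgeR at an adjusted p under 0.01, where 3112, 1977 and 3875 contigs had an unadjusted p under 0.05. GEMC01069390.1, not called, ranged from -0.61 (without replicate 3 in air) to 0.38 (without replicate 2 in air). Among alternatives for shares, classes and library measures, 36 were rated the same and 20 moved, mostly with TPM in place of counts. The bounds for this rating differed. With TPM, set shares were held to 1 SD and class percentages to a confidence interval. The excess of lower contigs in the top class and the numbers of contigs for gain and loss were held to 1.5 times. Library measures were held to their sign alone. The alternatives for the controls of the 2 days, for the spread of gain and loss over contigs and for the top abundance class were chosen after seeing the data. The causes were not tested.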
